A study of Mus musculus with 6 samples.

Results

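The comparison described here is vitamin C depletion within the liver of mice that cannot make the vitamin: 2 arrays of knockouts without ascorbic acid (AA, vitamin C) against 2 arrays of knockouts given it, 4 of the 6 arrays of the series. The arrays were chosen by their labels alone, and every gene with a probe set of its own was followed. The series measured liver RNA of male mice on a C57BL/6NCrSlc background with Affymetrix arrays, and asked what the loss of SMP30/GNL and of AA does to liver transcripts. SMP30/GNL, also called regucalcin, is the gluconolactonase encoded by Rgn. All 3 groups ate the AA-deficient diet CL-2. The AA-deficient knockouts (SMP30/GNL KO) had no added AA, and the AA-supplemented knockouts (SMP30/GNL KO) drank water with AA and EDTA, at a level stated to keep tissue AA normal. The wild-type mice drank water without the vitamin. Both knockout groups therefore share the Rgn deletion and differ in AA, and perhaps in EDTA, since the labels do not say whether other groups received it. Ages are not given, and nothing in the labels says that a group's 2 arrays stand for different animals. The p-values thus reflect the spread of these arrays alone, and that spread may be technical.

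Ascorbate is an electron donor and keeps the iron of a family of dioxygenases in its reduced state, among them the hydroxylases of collagen, of hypoxia-inducible factors and of DNA and histone methyl groups. Most mammals make it in the liver from glucose by way of gulonolactone, and the liver passes it to the blood. Its lack in guinea pigs is known to slow the conversion of cholesterol to bile acids.

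Values are in deposited log units, read here as log10, so each fold holds on that reading only. No detection call was used, so a low value cannot be told from background, and 2 arrays a group limit the precision. Rgn lay at 0.23 and 0.30 in the AA-deficient and 0.34 and 0.14 in the AA-supplemented arrays, against 2.07 and 2.0 in wild type. Gulo, the last enzyme of the AA pathway, read 2.05 and 2.03, 1.98 and 2.12 and 2.04 and 1.95 in the same order of groups. Genes were tested where the mean over the 6 arrays reached the 25th percentile (0.185). The 13 hepatocyte markers measured all passed that filter, as the liver label asks, and Alb, the gene of albumin, was at 2.25 and 2.27, 2.22 and 2.37 and 2.26 and 2.23 in the 3 groups in that order. None of the 13 had an unadjusted p under 0.05 between the knockout groups in limma. One array fact touches the results below: among the 440 genes of highest level, the median departure from the mean of the 4 knockout arrays was 0.047 on AA-supplemented array 2 and -0.047 on AA-supplemented array 1.

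Of 14662 genes tested, 30 passed an adjusted p of 0.05 in limma, 0.205% of all, and 24 of them were lower in AA deficiency. In percent of the genes tested, 0.0409% were called higher and 0.164% lower. The largest falls were in Nrg4, E2f8 and Steap4, each over 4-fold, and the largest rises in Themis and Meig1, both of which passed the filter on low values only through the deficient arrays. The values of the 2 groups did not overlap for any of the 30, which also holds for 19.8% of all genes in the higher and 17.5% in the lower direction. The count moved with each array left out. On the 4 knockout arrays alone 0 genes passed in limma, with 1230 still at an unadjusted p under 0.05. Leaving out either wild-type array gave that same result, since it removes a residual degree of freedom and leaves the differences as they were. The count fell without either AA-deficient array or AA-supplemented array 2, and rose without AA-supplemented array 1. Without AA-deficient array 1 no gene passed higher and 1 lower, without AA-deficient array 2 it was 0 and 7, and without AA-supplemented array 1 it was 17 and 29. Quantile normalisation left 1 higher and 13 lower, and cyclic loess 1 and 12, so the share of rises was smaller there.

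**Figure D1:**
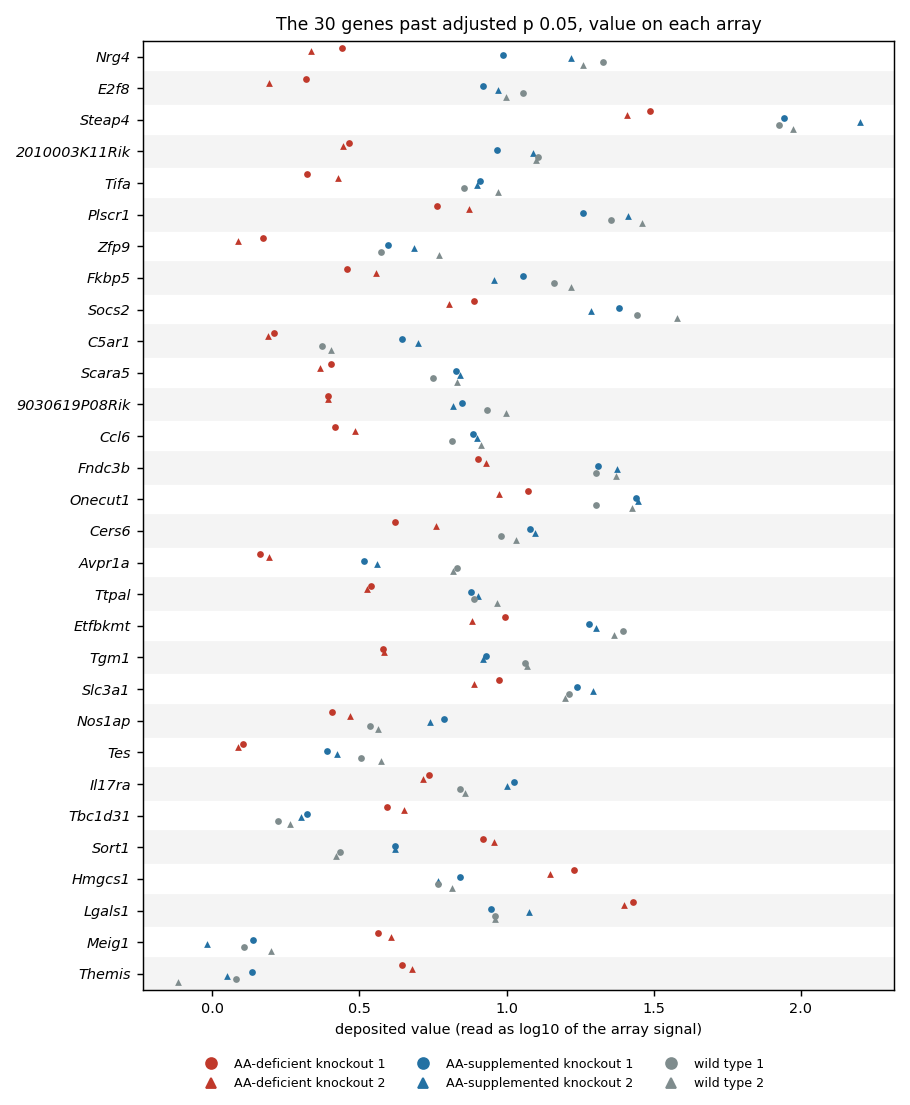
Deposited value (horizontal axis, read as log10) of the 30 genes past the threshold on each of the 6 arrays, ordered by difference. Colours stand for the group and marker shapes for the array number. For every gene the 2 red symbols (AA-deficient) lie on one side of the 2 blue symbols (AA-supplemented). Nrg4, at the top, has 0.44 and 0.34 against 0.99 and 1.22.

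**Figure D2:**
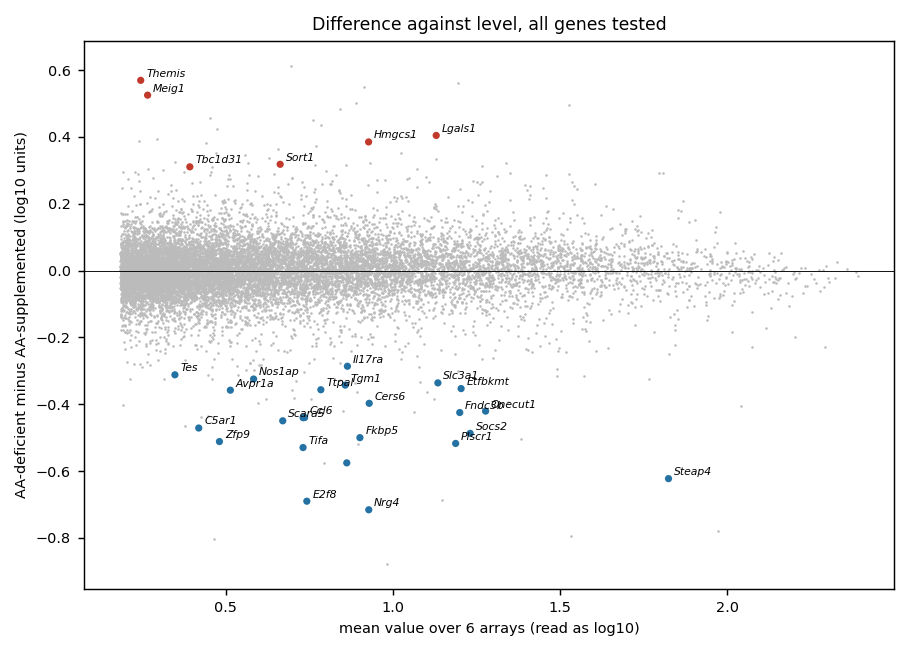
AA-deficient minus AA-supplemented difference (log10 units) against the mean value over 6 arrays for the 14662 genes tested, 1 point a gene. The 6 genes called higher are in red and the 24 called lower in blue, all but the 2 clone-named genes with their symbols. Several grey points lie as far from 0 as the called genes, Saa3 at -0.88 among them, whose arrays within a group were wide apart.

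Hmgcs1, which makes HMG-CoA and so feeds the mevalonate pathway, was the 1 cholesterol gene that passed. Its values were 1.23 and 1.15 in AA-deficient and 0.84 and 0.77 in AA-supplemented knockouts, with wild type at 0.77 and 0.81. Both deficient arrays stood above all 4 others. It rose by 0.39 (SE 0.0492, adjusted p = 0.0405 in limma), a 2.43-fold difference. Its promoter is printed because sterol enzyme genes are textbook targets of SREBP-2, a factor that binds the sterol regulatory element beside factors at CCAAT boxes. The window shown is chr13:119690101-119690370 on the plus strand (RefSeq, GRCm38.p6), from 250 bases before the gene start to 20 after it. Capitals mark TCACNCCAC, 1 form of that element, and CCAAT, each searched on both strands (CCAAT reads ATTGG on the other strand).
Hmgcs1: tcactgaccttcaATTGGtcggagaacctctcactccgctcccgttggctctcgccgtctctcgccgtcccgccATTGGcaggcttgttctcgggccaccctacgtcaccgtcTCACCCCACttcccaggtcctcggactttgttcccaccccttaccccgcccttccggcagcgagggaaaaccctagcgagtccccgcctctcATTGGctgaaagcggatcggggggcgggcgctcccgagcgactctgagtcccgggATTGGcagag
The window holds 1 match of TCACNCCAC, beginning 137 bases before the start, and 4 of CCAAT. Over all 32851 promoter windows of 300 bases in the table, 1.24% hold the former and 37.4% the latter. Of the 17 cholesterol synthesis genes tested, 14 had a window, and all 14 had a CCAAT match in at least 1 of theirs (14 of 17 windows, 82.4%). TCACNCCAC was found in 1 of them. A match describes the letters and shows no binding.

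The other enzymes of the pathway lay on the same side without passing. From acetyl-CoA to squalene, 7 of 7 tested members were higher in AA deficiency, with a median difference of 0.21 against 0.000031 over all genes. Of these 7, 6 had an unadjusted p under 0.05 in limma, against 5.38% of all genes. The called gene Hmgcs1 is included in these counts and in the median. From squalene to cholesterol, 10 of 10 were higher, 7 at an unadjusted p under 0.05, with a median of 0.17. Farnesyl diphosphate synthase, Fdps, read 1.62 and 1.38 against 1.18 and 1.23 (wild type 1.42 and 1.28), and its groups did not overlap (adjusted p = 0.25). Msmo1, the sterol C4-methyl oxidase, read 1.06 and 0.90 against 0.68 and 0.66, with wild type at 0.98 and 0.86 and an adjusted p of 0.132. Lanosterol synthase, Lss, read 0.82 and 0.80 against 0.65 and 0.54, with 0.76 and 0.77 in wild type. In contrast to Hmgcs1, wild-type levels of these 3 enzymes lay above both AA-supplemented arrays. The smallest differences were those of Mvd (0.031), Hsd17b7 (0.03) and Ebp (0.0024), and these 3 turned sign with 1 array left out. Relative to the mean of the 4 knockout arrays, the median of the first 7 genes was 0.18 and 0.038 on the deficient arrays and -0.061 and -0.14 on the supplemented arrays.

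**Figure D3:**
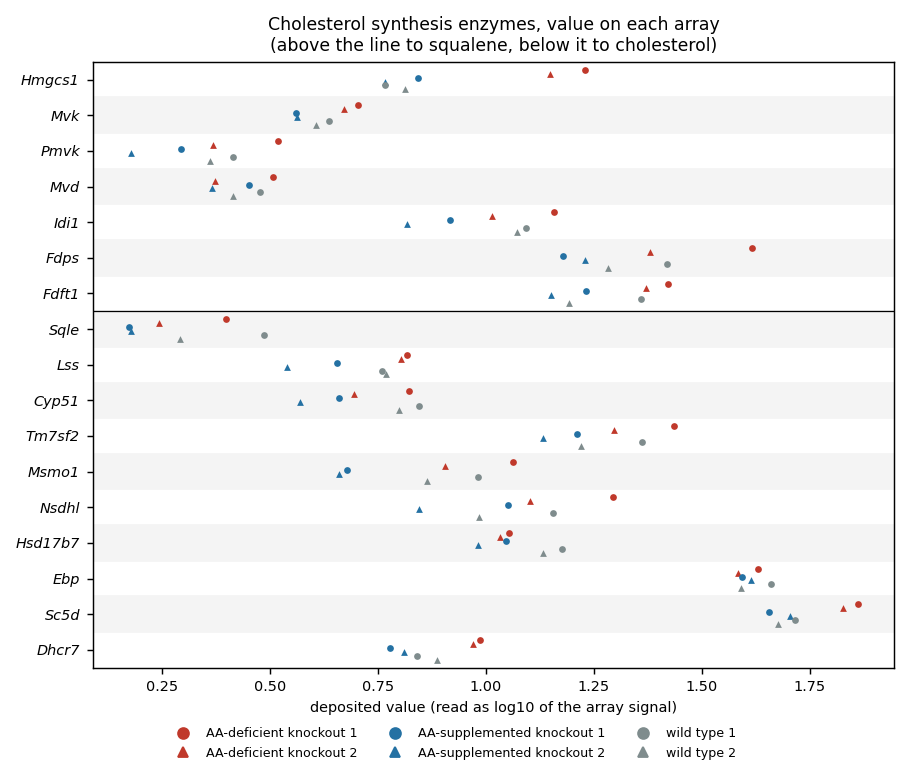
Deposited value (horizontal axis, read as log10) of 17 cholesterol synthesis enzymes on each of the 6 arrays, in pathway order, with a line at squalene. The red symbols (AA-deficient) lie to the right of both blue symbols (AA-supplemented) for 14 of the 17, Hmgcs1 widest apart, and overlap them for Mvd, Hsd17b7 and Ebp. Of all genes tested, 19.8% lay apart in this direction.

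Of the genes that sense sterols, Insig1, which holds SREBP in the endoplasmic reticulum and is itself a target of it, read 1.72 and 1.67 against 1.38 and 1.43 (wild type 1.55 and 1.4, adjusted p = 0.125). Insig2, its relative, leaned the other way at 1.63 and 1.62 against 1.7 and 1.8. Of the 8 tested genes of this list 6 were higher and 2 lower. None passed, and 2 higher and 1 lower had an unadjusted p under 0.05.

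Fatty acid synthesis genes leaned higher too, and 0 of 15 tested passed. Srebf1, the gene of SREBP-1, had 1.26 and 1.42 in deficiency, 1.01 and 0.86 with AA and 0.83 and 0.92 in wild type (difference 0.40, SE 0.0712, adjusted p = 0.104). Fatty acid synthase, Fasn, read 1.51 and 1.45 against 1.25 and 1.26, with wild type lower still at 1.0 and 1.07. In both genes the deficient arrays were the highest of the 6. In all, 11 of the 15 were higher, 6 at an unadjusted p under 0.05.

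Sort1 encodes sortilin, a sorting receptor that binds lipoproteins in the liver. It rose from 0.62 and 0.62 to 0.92 and 0.96, by 0.32 (SE 0.04, adjusted p = 0.0405), and wild type was lowest at 0.44 and 0.42. Of 13 tested genes of lipid uptake it was the 1 that passed. Cd36, the fatty acid transporter, showed the same order of groups at 1.47 and 1.48, 1.27 and 1.19 and 0.84 and 0.95, as did lipoprotein lipase, Lpl, at 1.35 and 1.48, 1.0 and 1.22 and 0.59 and 0.78. Pparg, a factor that drives fat storage, ran alike at 1.05 and 1.1, 0.81 and 0.85 and 0.63 and 0.59 (adjusted p = 0.104). Cidec, a lipid droplet protein, ran opposite to them, with 0.21 and 0.20 in deficiency, 0.48 and 0.51 with AA and 0.63 and 0.72 in wild type (adjusted p = 0.0753). Of 14 tested droplet and lipolysis genes 11 were lower in deficiency and 0 passed, with 3 lower and 1 higher at an unadjusted p under 0.05.

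Bile acid synthesis starts from cholesterol with Cyp7a1, its rate-limiting enzyme. Cyp7a1 lay at 1.28 and 1.5 in AA-deficient and 0.79 and 0.87 in AA-supplemented knockouts, but its wild-type arrays were far apart at 1.71 and 1.01, and the difference of 0.56 had an SE of 0.191 and an adjusted p of 0.363. Cyp8b1, which sets the share of cholic acid, read 1.78 and 1.68 against 1.52 and 1.54. Of 17 tested members 12 were higher and 0 passed, with 5 higher and 2 lower at an unadjusted p under 0.05. Among transporters, the bile acid importer Slc10a2 had 0.50 and 0.42 in deficiency, 0.80 and 0.97 with AA and 1.2 and 1.21 in wild type, and just missed the threshold (adjusted p = 0.0527). The basolateral exporters Abcc3 (1.78 and 1.77 against 1.59 and 1.48) and Abcc4 (0.54 and 0.58 against 0.33 and 0.20) leaned higher, with adjusted p of 0.128 and 0.104.

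The acute phase genes, a set tied to the liver's response to inflammation, lay lower in AA deficiency in 27 of 28 tested. Of these, 16 had an unadjusted p under 0.05 in limma, against 4.54% of all genes. The median difference was -0.19. Only Steap4 passed, and it is included in these counts and in the median. Steap4, a reductase of iron and copper that inflammation induces, read 1.49 and 1.41 in deficiency, 1.94 and 2.2 with AA and 1.93 and 1.97 in wild type. It fell by 0.62 (SE 0.0793, adjusted p = 0.0405). Both deficient arrays were the lowest of the 6. Lipocalin 2, Lcn2, read 0.95 and 1.13 against 1.66 and 2.0 (wild type 1.58 and 1.88, adjusted p = 0.083). Orm2, an orosomucoid, read 1.07 and 1.28 against 1.66 and 1.69, above wild type at 1.25 and 1.35 (adjusted p = 0.0519). The serum amyloid genes had the widest gaps and the widest spread, as in Saa3 with 0.35 and 0.83 against 1.17 and 1.76 and an adjusted p of 0.199. Saa1, Saa2 and the orosomucoids have close relatives whose probes may share signal.

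The group's medians on the 4 knockout arrays were -0.10 and -0.063 in deficiency and 0.0027 and 0.17 with AA, so AA-supplemented array 2 stood highest. Without that array the median difference was -0.11 and 20 of 28 genes were lower, and under quantile normalisation it was -0.17 with 27 lower. Fibrinogen beta, Fgb, is an example that turned: it read 2.27 and 2.24 against 2.22 and 2.41. The same array was high for albumin and other bright hepatocyte genes, and its part in the group's difference was not tested beyond those values. The summed value of 13 neutrophil markers was also lower in deficiency, at 1.61 and 1.30 against 2.32 and 3.07 with AA and 2.14 and 2.62 in wild type. Of these 13 markers 8 were under the filter, S100a8 reading 0.063 and -0.015 against 0.16 and 0.35, and their part was not tested. In bulk tissue fewer cells of a type and less RNA per cell cannot be told apart.

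Promoters of Steap4 and Orm2 are printed because the inflammatory factors STAT3 and C/EBP beta act on acute phase genes. Capitals mark TTCCNGGAA, a STAT form found in 1.15% of all windows, and TTNCGCAA, a C/EBP form in 0.798%, both strands searched. The windows span the same bases of each gene, chr5:7960222-7960491 and chr4:63362199-63362468, both on the plus strand of GRCm38.p6.
Steap4: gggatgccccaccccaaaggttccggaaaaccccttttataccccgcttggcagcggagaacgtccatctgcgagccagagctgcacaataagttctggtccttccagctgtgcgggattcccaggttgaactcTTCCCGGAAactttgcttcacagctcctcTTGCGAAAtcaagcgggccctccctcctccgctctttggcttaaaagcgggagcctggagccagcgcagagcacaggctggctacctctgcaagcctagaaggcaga
Orm2: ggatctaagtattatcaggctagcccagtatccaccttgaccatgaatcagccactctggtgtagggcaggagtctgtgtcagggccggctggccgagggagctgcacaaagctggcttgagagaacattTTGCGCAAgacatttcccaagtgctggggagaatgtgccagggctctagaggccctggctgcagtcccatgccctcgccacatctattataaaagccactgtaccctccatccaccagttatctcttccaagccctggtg
Steap4 holds both, 116 and 87 bases before its start, and Orm2 the C/EBP form 120 bases before its start. Of 24 acute phase genes with a window, 2 hold each motif, in 7.41% of the group's 27 windows each. Fga and Steap4 hold the STAT form. The 2 printed genes are the only ones of the group with the C/EBP form, so they do not stand for the rest.

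C5ar1, the receptor of complement C5a, fell from 0.64 and 0.70 to 0.21 and 0.19 (SE 0.0419, adjusted p = 0.0193), and wild type was between them at 0.37 and 0.40. Ccl6, a chemokine of macrophages, fell from 0.89 and 0.90 to 0.42 and 0.49, with 0.81 and 0.91 in wild type. The groups overlapped for Clec4f and Csf1r. Clec4f, a Kupffer cell lectin, read 1.14 and 1.2 against 1.18 and 1.07, and Csf1r, the growth factor receptor of macrophages, 1.13 and 1.25 against 1.17 and 1.02. Of 17 tested Kupffer and macrophage markers 10 were higher and 7 lower, and C5ar1 and Ccl6 were the 2 called. The groups did not overlap for 1 of the 17 in the higher (5.9%) and 5 in the lower direction (29.4%), the 2 called genes included. Over all genes the shares were 19.8% and 17.5%. The summed level of the 18 measured overlapped between groups, at 14.6 and 15.9 against 16.6 and 15.1.

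Il17ra, the receptor chain of interleukin 17, fell from 1.03 and 1.0 to 0.74 and 0.72, the smallest difference of the 30, with wild type at 0.84 and 0.86. The supplemented pair was highest. Tifa, an adaptor that joins TRAF6 to NF-kappaB signalling, fell from 0.91 and 0.90 to 0.32 and 0.43 (adjusted p = 0.0263), with wild type at 0.85 and 0.97. Plscr1, an interferon-induced phospholipid scramblase, fell from 1.26 and 1.41 to 0.76 and 0.87. It was the 1 of 19 tested interferon-stimulated genes that passed, and 11 of the 19 leaned higher.

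Iron handling held 2 called genes of 24 tested, Steap4 and Scara5, a ferritin receptor, both lower, against 0.164% of all genes called lower. Scara5 read 0.40 and 0.37 in deficiency, 0.83 and 0.84 with AA and 0.75 and 0.83 in wild type (difference -0.45, SE 0.0448, adjusted p = 0.0263). The pairs were tight, and the deficient pair alone was low. The 24 tested iron genes were split in direction, 11 higher and 13 lower, with a median of -0.004. Of the 24, 3 higher and 6 lower had an unadjusted p under 0.05 in limma, against 5.38% and 4.54% of all genes. The median size of the difference was 0.10, the called genes included, against 0.041 over all genes. Hmox1, which frees iron from heme, read 0.74 and 0.78 against 0.97 and 0.98, and 0.69 and 0.73 in wild type (adjusted p = 0.119). Hmox1 is also a target of Nrf2, a transcription factor that oxidants activate. In that list 18 of 25 leaned higher and 7, Hmox1 among them, lower, with a median of 0.085 and 0 called. There 8 higher and 2 lower had an unadjusted p under 0.05 in limma, against 5.38% and 4.54% of all genes. Aldehyde oxidase, Aox1, read 1.47 and 1.48 against 1.23 and 1.18 and 1.11 and 1.11 in wild type (adjusted p = 0.0655).

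Chaperones leaned lower. In the endoplasmic reticulum 25 of 25 tested folding and stress genes had a lower mean in AA deficiency, with a median of -0.082 and 0 called. Of these, 7 had an unadjusted p under 0.05 in limma, against 4.54% of all genes in the lower direction. Without AA-supplemented array 2, 4 of the 25 were higher and 21 lower. Xbp1, a factor of the unfolded protein response, read 1.75 and 1.68 against 1.92 and 1.86 (wild type 1.94 and 1.91). Creld2, a protein induced by stress there, had the widest difference at 1.33 and 1.13 against 1.65 and 1.39, and 1.78 and 1.67 in wild type. Hspa5, the main chaperone there, read 2.05 and 1.92 against 2.1 and 2.12. Among cytosolic and mitochondrial chaperones 16 of 20 were lower, with a median of -0.11 and 0 called. At an unadjusted p under 0.05 in limma were 8 lower and 1 higher, against 4.54% and 5.38% of all genes. Hsp90aa1, an inducible HSP90, read 1.44 and 1.45 against 1.62 and 1.68, and 1.72 and 1.62 in wild type (adjusted p = 0.182). Its deficient arrays were the lowest of the 6. On the 4 knockout arrays the median of the 20 was -0.030 and -0.063 against 0.048 and 0.051, so both supplemented arrays stood alike here, unlike in the acute phase group.

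**Figure D4:**
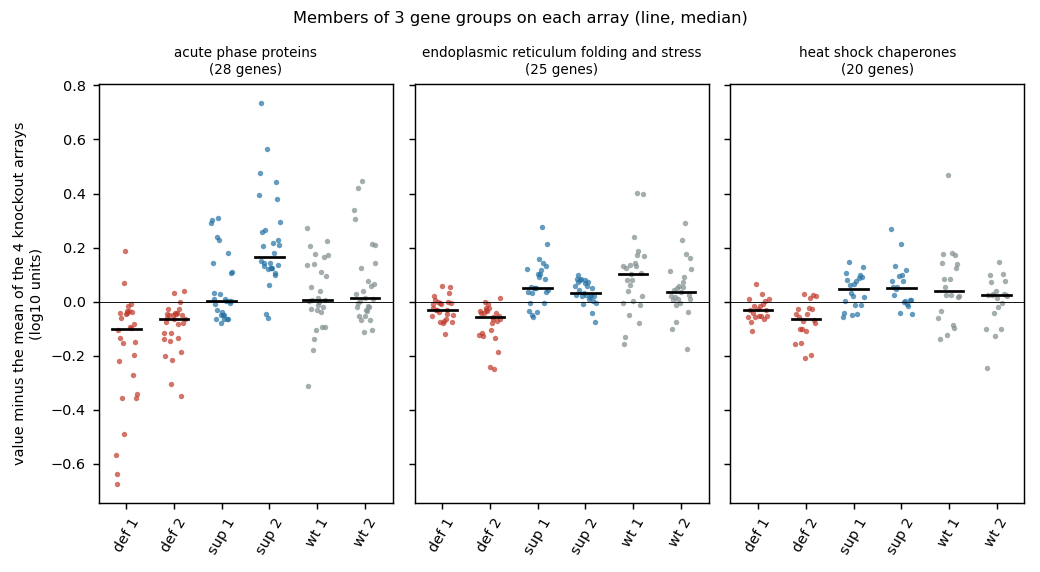
Value minus the mean of the 4 knockout arrays (log10 units) for the tested members of 3 gene groups on each array (def, AA-deficient; sup, AA-supplemented; wt, wild type), 1 point a gene, with the median as a line. Acute phase medians run from -0.10 on deficient array 1 to 0.17 on supplemented array 2, while the 20 heat shock chaperones lie at 0.048 and 0.051 on the supplemented arrays.

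The promoter of Chordc1, an HSP90 co-chaperone that read 0.93 and 0.90 against 1.11 and 0.99, is printed as an example of the element that heat shock factor binds. Capitals mark a heat shock element of 3 units, GAA, TTC and GAA with any 2 bases between neighbours, searched on both strands, in chr9:18292017-18292286 (plus strand, GRCm38.p6).
Chordc1: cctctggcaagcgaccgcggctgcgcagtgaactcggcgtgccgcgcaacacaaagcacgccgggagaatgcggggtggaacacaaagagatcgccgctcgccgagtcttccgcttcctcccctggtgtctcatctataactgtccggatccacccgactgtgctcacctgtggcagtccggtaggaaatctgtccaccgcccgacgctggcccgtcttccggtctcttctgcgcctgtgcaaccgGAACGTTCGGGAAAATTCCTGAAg
It holds 3 overlapping matches, which begin 4 bases before the gene start and 1 and 6 bases after it. The element is in 0.603% of all windows and in 5 of 22 windows (22.7%) of the heat shock list, from 4 of its 16 genes with a window.

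Nrg4, an EGF family ligand of ErbB receptors, read 0.44 and 0.34 in deficiency, 0.99 and 1.22 with AA and 1.33 and 1.26 in wild type. The deficient arrays were lowest, by 5.2-fold on group means. Erbb4, the receptor that Nrg4 binds, ran the other way at 0.83 and 0.78, 0.47 and 0.22 and 0.17 and 0.24, without passing (difference 0.46, adjusted p = 0.0876). Avpr1a, the V1a receptor of vasopressin, fell from 0.51 and 0.56 to 0.16 and 0.19 (adjusted p = 0.0302), and was highest in wild type at 0.83 and 0.82. The leptin receptor, Lepr, was under the filter value in deficiency at 0.039 and 0.077, with 0.71 and 0.34 in the supplemented arrays (adjusted p = 0.233). Of 11 tested neuregulin and ErbB genes 6 were higher and 5 lower, and of 13 tested hormone receptors 9 were higher and 4 lower, with 1 called lower in each list.

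Socs2, which growth hormone induces through Stat5 and which restrains that pathway, fell from 1.38 and 1.29 to 0.89 and 0.80, with wild type at 1.44 and 1.58. Onecut1, the hepatocyte factor HNF6, also a growth hormone responsive gene, fell from 1.44 and 1.45 to 1.07 and 0.97 (difference -0.42, SE 0.0553, adjusted p = 0.045). Wild type read 1.3 and 1.43. Stat5b itself leaned higher at 1.13 and 1.14 against 0.97 and 0.99. Of 16 tested genes of the list 7 were higher and 9 lower, 3 each way at an unadjusted p under 0.05 in limma. The glucocorticoid targets were also mixed in direction, 8 higher and 9 lower of 17. Of these 17, 2 higher and 5 lower had an unadjusted p under 0.05 in limma. Over all genes the shares were 5.38% higher and 4.54% lower. Fkbp5, which binds steroid receptor complexes with HSP90, fell from 1.06 and 0.96 to 0.46 and 0.55, with 1.16 and 1.22 in wild type. The clock gene Per1, another such target, leaned higher at 0.68 and 0.72 against 0.47 and 0.42 (adjusted p = 0.087). Sult1e1, the estrogen sulfotransferase, had 0.10 and 0.21 in deficiency, but its supplemented arrays were far apart at 0.64 and 1.28, and wild type was low as well at 0.29 and 0.26.

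E2f8, a repressor of the E2F family active in liver polyploidy, had the smallest p of the 30, at 0.32 and 0.19 in deficiency, 0.92 and 0.97 with AA and 1.06 and 1.0 in wild type (difference -0.69, SE 0.0533, adjusted p = 0.0193). The deficient pair stood alone. Of 11 tested E2F genes it was the 1 called. Cyclin E1, Ccne1, read 0.29 and 0.25, 0.53 and 0.53 and 0.60 and 0.60 in the same order of groups (adjusted p = 0.0655). Ccnd1, cyclin D1, had 0.74 and 0.78, 0.96 and 1.01 and 1.07 and 1.06. Of 25 tested cell cycle genes 15 were nonetheless higher in deficiency and 10 lower. None passed, and 4 in each direction had an unadjusted p under 0.05.

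The remaining falls span metabolism, transport and cell structure. Cers6, a ceramide synthase, fell from 1.08 and 1.1 to 0.62 and 0.76, with wild type at 0.98 and 1.03. Ttpal, a relative of the vitamin E transfer protein, fell from 0.88 and 0.90 to 0.54 and 0.53, with 0.89 and 0.97 in wild type. Slc3a1, the heavy subunit of the cystine transporter, fell from 1.24 and 1.29 to 0.97 and 0.89, and wild type read 1.21 and 1.2. For each of these 3 the deficient pair was the lowest of the 6 arrays. Etfbkmt, a methyltransferase of the electron transfer flavoprotein, fell from 1.28 and 1.3 to 0.99 and 0.88 (adjusted p = 0.0479). Tgm1, transglutaminase 1, fell from 0.93 and 0.92 to 0.58 and 0.58, and wild type was higher at 1.06 and 1.07. Fndc3b, a fibronectin domain protein, fell from 1.31 and 1.38 to 0.90 and 0.93. Their wild-type levels were above the deficient arrays. Nos1ap, an adaptor of neuronal nitric oxide synthase, fell from 0.79 and 0.74 to 0.41 and 0.47, and its wild type lay between them at 0.54 and 0.56. With the mean of its probe sets in place of the brightest one, the difference of Nos1ap was -0.17 and no longer passed, and Etfbkmt was lost too (-0.30), which left 6 higher and 22 lower genes. Tes, the focal adhesion protein testin, fell from 0.39 and 0.42 to 0.10 and 0.089, and Zfp9, a zinc finger protein, from 0.60 and 0.69 to 0.17 and 0.087. Both were under the filter value of 0.185 on the deficient arrays.

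The other rises were in genes of varied roles. Lgals1, galectin 1, a lectin of stromal and immune cells, rose from 0.95 and 1.08 to 1.43 and 1.4 (difference 0.40, SE 0.0513, adjusted p = 0.0405), and wild type was at 0.96 and 0.96. Of 16 tested stellate cell and fibroblast markers 13 leaned higher and 0 passed (3 higher at an unadjusted p under 0.05), with summed levels of 11.8 and 10.97 against 9.97 and 10.999, and their part was not tested. Themis, a T cell receptor signalling protein, rose from 0.14 and 0.051 to 0.65 and 0.68, with 0.081 and -0.12 in wild type. The groups overlapped for Cd3e, a chain of the T cell receptor complex, which read 0.31 and 0.46 against 0.39 and 0.36, and Cd3d was near 0 on every array. Of 15 T and NK markers 7 passed the filter. Among these 7, Themis was the 1 with an unadjusted p under 0.05 in limma. It was also the 1 whose groups did not overlap, which holds for 19.8% of all genes in the higher direction. The summed level of the 15 was 2.81 and 3.76 against 2.63 and 1.89, but Themis is part of that sum. The sum therefore does not stand apart from the rise of Themis. Meig1, known from sperm formation, rose from 0.14 and -0.018 to 0.56 and 0.61, and Tbc1d31, a centriolar protein, from 0.32 and 0.30 to 0.59 and 0.65. On the supplemented arrays Meig1 and Themis were under the filter value, and their wild-type means were too, so both genes passed the filter only through the deficient arrays, where they were high.

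None of the enzymes that use ascorbate or of the genes that handle it passed. Of 26 tested dioxygenases and other ascorbate-dependent oxygenases 16 leaned higher and 10 lower, with a median of 0.014. Their groups did not overlap for 9 in the higher (34.6%) and 6 in the lower direction (23.1%), against 19.8% and 17.5% of all genes. The median size of the difference was 0.057 against 0.041 over all genes. P3h1, a collagen prolyl hydroxylase, was the 1 with an unadjusted p under 0.05, at 0.31 and 0.34 against 0.48 and 0.43. Of the AA transporters, Slc23a2 read 1.11 and 1.13 in deficiency, 0.91 and 0.94 with AA and 0.77 and 0.78 in wild type (adjusted p = 0.154), and Slc23a1 1.55 and 1.52, 1.45 and 1.44 and 1.43 and 1.41. In both the deficient pair was highest, by 0.19 and 0.087. Of 14 tested genes of AA synthesis, transport and recycling 9 leaned higher and 0 passed, with 3 higher at an unadjusted p under 0.05. Of 15 tested collagen and cross-linking genes 0 had an unadjusted p under 0.05 in limma.

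**Figure D5:**
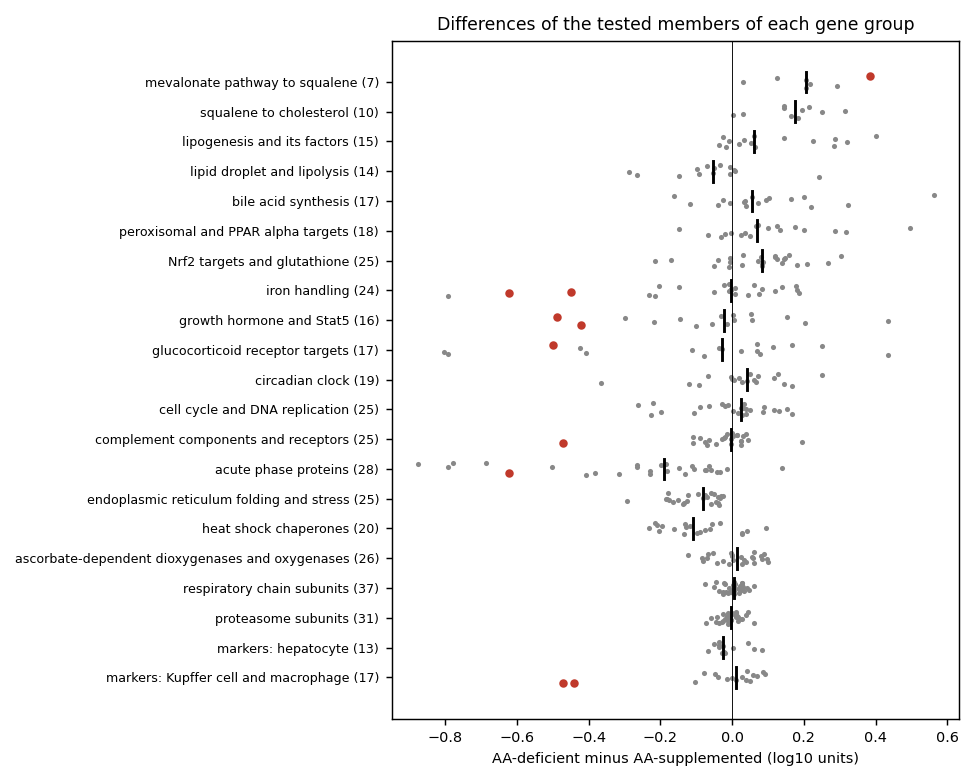
AA-deficient minus AA-supplemented difference (log10 units) of each tested member of 21 gene groups (number tested in brackets), with the median as a black line and called genes in red. The cholesterol groups lie right of 0 with medians of 0.21 and 0.17, the acute phase group left of it at -0.19, and the ascorbate-dependent oxygenases around 0.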

How the data were processed

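Liver RNA was hybridised to 6 Affymetrix arrays, 2 in each of 3 groups taken from the sample titles. The deposited table holds the authors' values on a log scale, read here as log10 from their span (-0.58 to 2.51); its software, background correction, normalisation and log base were not given in the sources used here. Probe sets with 1 symbol were kept, the one of highest mean for each gene, giving 19550 genes, of which 14662 at or above the 25th percentile of the mean were tested. All 6 arrays entered one limma fit (limma 3.58.1, R 4.3.3, eBayes without trend) on the values as deposited, which left 3 residual degrees of freedom beside 4.89 from the prior. Two-sided p-values were Benjamini-Hochberg adjusted over all genes tested, with a threshold of 0.05. The fit was tested on simulated data. Array medians ran from 0.350 to 0.392, and the number of arrays limits the precision.

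The members and 59 gene lists (997 of 1098 entries measured, 33 more on shared probe sets only) were chosen with earlier results of these data known, so lists carry counts and medians and no test. Named genes were Rgn, Gulo, every called gene except predicted genes, clones, Olfr and Vmn receptors, small RNAs and bare accessions, the 4 members of smallest p in each list, all members of 9 lists (the cholesterol, sterol sensing, acute phase, heat shock, endoplasmic reticulum, clock and ascorbate lists) and defining cell markers. Same-numbered arrays of the 2 knockout groups deviated with a correlation of -0.37 (0.36 for AA-deficient and -0.28 for AA-supplemented with wild-type arrays), so the numbers were not taken as pairs. Alternatives covered normalisation, the filter, probe set choice, variance options, a replicate block and leaving out each array. Promoter windows (32851, RefSeq, GRCm38.p6) were matched by symbol, 21 of the 30 called genes having one.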

Additional observations from a re-analysis of the deposited data

How the results depend on the processing

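With 2 arrays a group the number of calls moved with most settings. Each of the 28 named called genes kept its sign in the 17 alternatives tried (16 for Tes, Meig1 and Themis, which a stricter filter removed), as groups that do not overlap must when 1 array is left out. Genes called higher and lower, 6 and 24 as reported, were 1 and 13 with quantile normalisation, 16 and 41 with centring on gene medians, 1 and 12 with cyclic loess, 14 and 37 when the filter was set at the 50th percentile and 66 and 88 when eBayes used a trend. A robust trend gave 83 and 94 and array weights 2 and 13. In limma 0 passed without a filter or on the 4 knockout arrays alone, where 1550 and 1230 genes had an unadjusted p under 0.05. With the replicate number as a block 0 and 4 passed, of which 2 were among the 24, but what the numbers mark is not known and they were not taken as pairs. After seeing the data, 2 alternatives were added: a block with the supplemented numbers crossed gave 32 and 43, and centring on all probe sets 14 and 43. Leaving out 1 array gave 0 to 17 higher and 0 to 29 lower. The medians of the 5 lists described most fully, 2 of cholesterol synthesis, acute phase, endoplasmic reticulum folding and heat shock, kept their sign throughout. With 1 array left out they ran from 0.15 to 0.28 (to squalene), 0.14 to 0.21 (to cholesterol), -0.26 to -0.11 (acute phase), -0.091 to -0.058 (endoplasmic reticulum) and -0.12 to -0.093 (heat shock). Some uncalled genes turned sign. Quantile normalisation gave -0.00362 for Ebp and 0.00283 for Gulo. With 1 array left out the differences ran from -0.036 to 0.0985 for Mvd, -0.00268 to 0.0623 for Hsd17b7, -0.0213 to 0.026 for Ebp, -0.154 to 0.0346 for Fgb, -0.0792 to 0.0566 for Gulo, -0.0757 to 0.122 for Rgn and -0.112 to 0.0377 for Alb, the turned values of Fgb, Hsd17b7 and Alb coming without AA-supplemented array 2. The causes were not tested beyond what each setting removes. The median over all genes moved by under 0.01 in every setting.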

Other observations

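Of 37 tested subunits of the respiratory chain, 30 cytosolic ribosomal proteins and 31 proteasome subunits, 0 had an unadjusted p under 0.05 in limma, and their median differences were 0.0058, 0.015 and -0.0035. Pericentral hepatocyte and Wnt target genes, 16 tested, gave 8 higher and 8 lower. Coagulation genes, 16 tested, gave 11 higher and 5 lower, again with 0 at an unadjusted p under 0.05.

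Hypoxia-inducible factor targets, whose factor is degraded after ascorbate-dependent hydroxylation, were 4 higher and 11 lower of 15 tested, with 0 called and 2 higher and 1 lower at an unadjusted p under 0.05. Pfkfb3, a glycolytic regulator, read 0.54 and 0.49 in AA-deficient knockouts, 0.79 and 0.96 in AA-supplemented knockouts and 0.71 and 0.69 in wild type (adjusted p = 0.0889). Ndrg1, a stress-responsive gene of the same list, leaned the other way at 0.81 and 0.84 against 0.68 and 0.58. Of 19 tested clock genes 13 leaned higher. The clock repressor Ciart read 0.98 and 0.73 against 1.27 and 1.17 (wild type 1.25 and 1.23, adjusted p = 0.151), and the labels give no time of day of collection. Sinusoidal endothelial markers leaned higher in 13 of 15 tested, with a median of 0.058, 0 called and 3 higher at an unadjusted p under 0.05.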
